A study of Mus musculus with 4 samples.

Results

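Each microRNA (miRNA) hairpin is cut into a duplex of 2 short strands. The strand that is usually loaded on an Argonaute protein and silences target mRNAs is called the guide arm, and its partner, which is usually degraded, is called the passenger arm. The passenger arms examined here are the 3p strands (from the 3' side of the hairpin) mmu-let-7b-3p, mmu-let-7d-3p, mmu-let-7g-3p, mmu-miR-15a-3p, mmu-miR-16-1-3p and mmu-miR-18a-3p, 6 of the 1881 miRNAs on the array. The members were selected on their array signals, as passenger arms of these families that were detected on all 4 arrays, and each was then set beside the 5p guide arm of its own hairpin. Their detection and their signals by day are therefore descriptions and not tests.

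The 4 samples were RNA of the exosome fraction, collected by ultracentrifugation of the medium in which 3T3-L1 cells, mouse preadipocytes of a fibroblast-like line, were grown. D0 was taken from cells in growth medium. For D4, D12 and D16, counted in days from the change of medium, the cells had received insulin, dexamethasone and 1-methyl-3-isobutylxanthine (DM-1) for 2 days and insulin alone (DM-2) after that, and all media held exosome-depleted fetal bovine serum. Each day was read on 1 single-colour array, of RNA that the methods describe as a mixture of 2 independent experiments and the labels as 3, so no day has a replicate and no p-value is given. Errors below are the technical error that the software gives within 1 array, which does not include the spread between cultures. Because only miRNAs were measured, protein-coding markers of adipocytes could not be checked. In all 4 samples, fewer vesicles and less miRNA per vesicle cannot be told apart.

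Guide arms of the let-7 family repress Lin28 and Hmga2 and accumulate as cells differentiate. miR-15a and miR-16-1 are cut from 1 non-coding transcript, Dleu2, and their guides repress Bcl2 and cyclins, while miR-18a belongs to the growth-promoting miR-17-92 cluster. Passenger arms carry seeds of their own, so a passenger arm that is kept can pair with other mRNAs than its guide does, as has been described for miR-18a-3p and K-Ras.

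The mature sequences are shown first, because the 2 arms of a hairpin have unrelated seeds and are read by separate probes. They are given 5' to 3' from RefSeq, with the seed (bases 2 to 8) in capitals. The passenger arms were as follows.

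mmu-let-7b-3p: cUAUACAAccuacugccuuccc

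mmu-let-7d-3p: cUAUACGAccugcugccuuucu

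mmu-let-7g-3p: aCUGUACAggccacugccuugc

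mmu-miR-15a-3p: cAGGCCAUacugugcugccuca

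mmu-miR-16-1-3p: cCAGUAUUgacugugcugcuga

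mmu-miR-18a-3p: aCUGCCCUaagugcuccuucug

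The guide arms of the same hairpins were as follows.

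mmu-let-7b-5p: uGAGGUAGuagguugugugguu

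mmu-let-7d-5p: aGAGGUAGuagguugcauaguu

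mmu-let-7g-5p: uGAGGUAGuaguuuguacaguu

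mmu-miR-15a-5p: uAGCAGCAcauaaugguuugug

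mmu-miR-16-5p: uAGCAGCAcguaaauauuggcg

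mmu-miR-18a-5p: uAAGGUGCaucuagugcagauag

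The 3 let-7 guides shared the seed GAGGUAG, and miR-15a-5p and miR-16-5p shared AGCAGCA. The 6 passenger arms had 6 different seeds. That of let-7b-3p was also the seed of let-7a-1-3p, let-7c-2-3p, let-7f-1-3p and miR-98-3p, and that of miR-18a-3p was also the seed of miR-7069-3p.

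In the GRCm38.p6 assembly, let-7b-3p is encoded at chr15:85707379-85707400 on the plus strand (gene Mirlet7b), let-7d-3p at chr13:48536024-48536045 on the minus strand (Mirlet7d) and let-7g-3p at chr9:106178902-106178923 on the plus strand (Mirlet7g). miR-15a-3p lies at chr14:61632038-61632059 (Mir15a) and miR-16-1-3p at chr14:61631894-61631915 (Mir16-1), both on the minus strand with 122 bases between them. miR-18a-3p lies at chr14:115043908-115043929 on the plus strand (Mir18). The guide miR-16-5p is encoded by both Mir16-1 and Mir16-2, so its signal is not that of the Mir16-1 hairpin alone.

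The values below are total gene signals, the unscaled intensities that the software sums over the probes whose signal exceeds 3 times their error. They were divided by the D0 signal without scaling between arrays. The study lists ratios to D0 for the 4 guide arms measured at D0. On each later day these are lower than the unscaled ratios given below, so they were not computed from the unscaled signals. How the study scaled its arrays before dividing by D0 is not stated in its methods, and the folds of both arms depend on that choice. The arrays differed in overall brightness. On D0, D4, D12 and D16 they detected 329, 426, 406 and 380 miRNAs. Relative to D0, the 4 spike-in RNAs were 1.82-fold, 1.72-fold and 1.27-fold brighter on the later arrays, and the median ratio over the miRNAs detected on both days was 2.47, 1.91 and 1.32. The D0 array, by which all signals were divided, was also uneven, with a median coefficient of variation between spots of 21.1% against 7.19% to 8.07% on the later arrays.

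In each hairpin that could be measured, the unscaled signal of the guide arm was several-fold higher than at D0 on all later days. The ratio of the passenger arm to D0 was 0.531 to 1.12 times the median ratio over the 283 miRNAs detected on all 4 arrays. The ratio of 3p to 5p signal was accordingly lower than at D0 in let-7b, let-7d, let-7g and miR-16 on D4, D12 and D16, and in miR-15a by at least 4.57-fold. miR-18a gave no such ratio, because its guide was detected at D16 alone.

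let-7b-3p had signals of 7.34 ± 0.90 on D0, 18.2 ± 1.51 on D4, 15.9 ± 1.37 on D12 and 10.9 ± 1.04 on D16. Its guide let-7b-5p had signals of 14.0, 88.7, 74.2 and 51.4 on the same days. Both arms were dimmest at D0 and brightest at D4. The ratio to D0 was 2.48 ± 0.368 on D4, 2.16 ± 0.325 on D12 and 1.48 ± 0.230 on D16 for the passenger, and 6.32, 5.29 and 3.66 for the guide.

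let-7d-3p had signals of 12.3 ± 1.03 on D0, 22.0 ± 1.62 on D4, 21.9 ± 1.56 on D12 and 14.0 ± 1.13 on D16. The signals of let-7d-5p were 13.4, 98.4, 106 and 70.2. At D16 the passenger was within 2 technical errors of its D0 signal, whereas the guide was not. The passenger ratios were 1.79 ± 0.201 on D4, 1.79 ± 0.197 on D12 and 1.14 ± 0.133 on D16, beside guide ratios of 7.35, 7.90 and 5.25.

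let-7g-3p had signals of 4.83 ± 0.71 on D0, 9.72 ± 1.21 on D4, 10.8 ± 1.25 on D12 and 6.28 ± 0.87 on D16. let-7g-5p had signals of 8.79, 69.3, 91.3 and 58.7, and its ratios to D0 were 7.88, 10.4 and 6.67. The passenger ratios were 2.01 ± 0.388 on D4, 2.24 ± 0.418 on D12 and 1.30 ± 0.262 on D16, but the software summed 2, 3, 4 and 3 probes in the order of the days. Over the probes detected on both days the ratios were 1.59, 1.55 and 1.02, so that the excess over 2-fold was not seen in the shared probes.

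miR-15a-3p had signals of 9.24 ± 0.95 on D0, 14.5 ± 1.40 on D4, 14.0 ± 1.31 on D12 and 9.40 ± 1.00 on D16. At D16 it had returned to within its technical error of D0. Its guide miR-15a-5p was not detected at D0 (upper bound of its signal, 5.12) and had signals of 36.7 on D4, 69.8 on D12 and 50.7 on D16. The guide was thus at least 7.17-fold, 13.7-fold and 9.91-fold brighter than at D0, against passenger ratios of 1.57 ± 0.220, 1.52 ± 0.210 and 1.02 ± 0.150. At D0 the passenger was thus detected and its guide was not.

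miR-16-1-3p had signals of 11.4 ± 1.01 on D0, 15.6 ± 1.43 on D4, 16.8 ± 1.39 on D12 and 9.98 ± 1.01 on D16, the last below its D0 signal. The ratios to D0 were 1.37 ± 0.175, 1.47 ± 0.179 and 0.876 ± 0.118. miR-16-5p had signals of 6.59, 68.6, 69.5 and 45.4 in the order of the days, with ratios of 10.4, 10.6 and 6.89. Over the 1 guide probe that was detected at D0 the guide ratios were 8.30, 8.44 and 5.50.

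miR-18a-3p lay at the limit of detection. It had signals of 2.86 ± 0.62 on D0, 2.08 ± 0.59 on D4, 3.81 ± 0.82 on D12 and 1.32 ± 0.43 on D16, with ratios to D0 of 0.725 ± 0.259, 1.33 ± 0.407 and 0.462 ± 0.181. The number of probes summed was 2, 1, 2 and 1 in the order of the days, and over the shared probes the ratios were 1.60, 1.33 and 1.02. The low D16 value thus went with a probe that was no longer counted. miR-18a-5p was detected only at D16, with a signal of 2.80 ± 0.92 from 1 of 2 probes and 0 of 30 spots well above background, so no guide ratio is given.

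**Figure D1:**
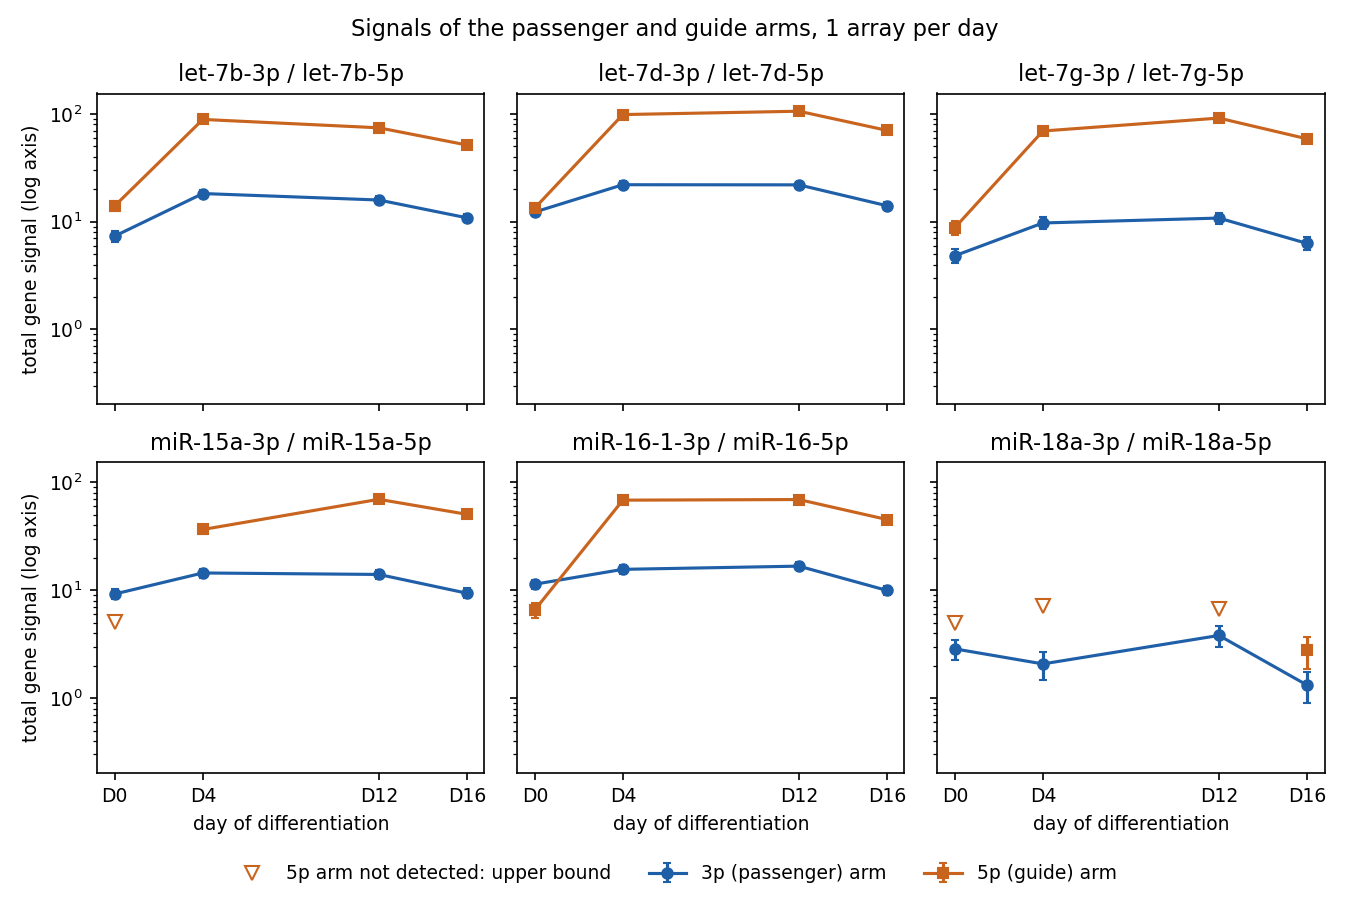
Total gene signal (log axis) against day of differentiation for the 6 passenger arms (blue circles) and their guide arms (orange squares), with the technical error of the array as bars and an open triangle at the upper bound of an undetected signal. Where both arms were measured at D0, the step from D0 to D4 is larger in orange than in blue. Heights of the 2 arms cannot be compared, because they come from different probes.

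A ratio to D0 above 2 was seen in 2 of 6 passenger arms at D4 (let-7b-3p and let-7g-3p), in the same 2 of 6 at D12 and in 0 of 6 at D16. Among all miRNAs detected on both days it was seen in 62.1% of 317, 47.8% of 297 and 31.1% of 289 on the same days. All 4 guide arms measured at D0 were above 2 on each later day. A ratio below 0.5 was seen in 0 passenger arms at D4 and D12 and in 1 at D16, miR-18a-3p, against 0.315%, 3.37% and 9.34% of all miRNAs, and not in that arm over its shared probe. The members had been chosen with these ratios known, so nothing is read from the counts.

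The median D12 ratio over the 283 miRNAs detected on all 4 arrays was 1.99. Divided by it, the D12 ratio was 1.12 for let-7g-3p, 1.08 for let-7b-3p, 0.896 for let-7d-3p, 0.761 for miR-15a-3p, 0.738 for miR-16-1-3p and 0.668 for miR-18a-3p. In rank, 61.6% of the 297 miRNAs detected on both days had a lower ratio than let-7g-3p and 29.3% a lower ratio than miR-16-1-3p. At D12 let-7b-3p and let-7d-3p lay nearer the middle of the array than the miR-15/16 pair, which lay below it. The place of let-7g-3p rests on 4 probes summed at D12 against 2 at D0. Over its probes detected on both days the D12 ratio was 1.55, below the median of 1.99. On D4, 50.8% of the miRNAs had a lower ratio than let-7b-3p, 12.3% a lower ratio than miR-16-1-3p and 1.58% a lower ratio than miR-18a-3p. Among miRNAs whose D0 signal lay in the range of the members (2.86 to 12.3), the median ratio was 2.39 on D4, 1.84 on D12 and 1.23 on D16. Among those read, like the members, by 4 probes it was 2.61, 2.21 and 1.52.

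The direction of the passenger ratios depended on the treatment of the signals. At D12 they ranged from 1.33 to 2.24 without scaling, from 0.774 to 1.30 after scaling by the spike-in RNAs, from 0.664 to 1.11 after scaling by the median, from 0.405 to 0.680 after scaling by the 75th percentile, and from 0.315 to 0.965 after quantile normalization. The 4 guide ratios were above 1 in each case, at 5.29 to 10.6, 3.07 to 6.13, 2.64 to 5.26, 1.61 to 3.21 and 2.43 to 4.52 in the same order. The mean over all 30 spots of a miRNA, which sums the same probes on every day and leaves out the effective spot size of the array (0.6 at D0 and D16, 0.780 at D4 and 0.760 at D12), gave passenger ratios at D12 of 1.03 to 1.71 and guide ratios of 4.18 to 8.20.

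**Figure D2:**
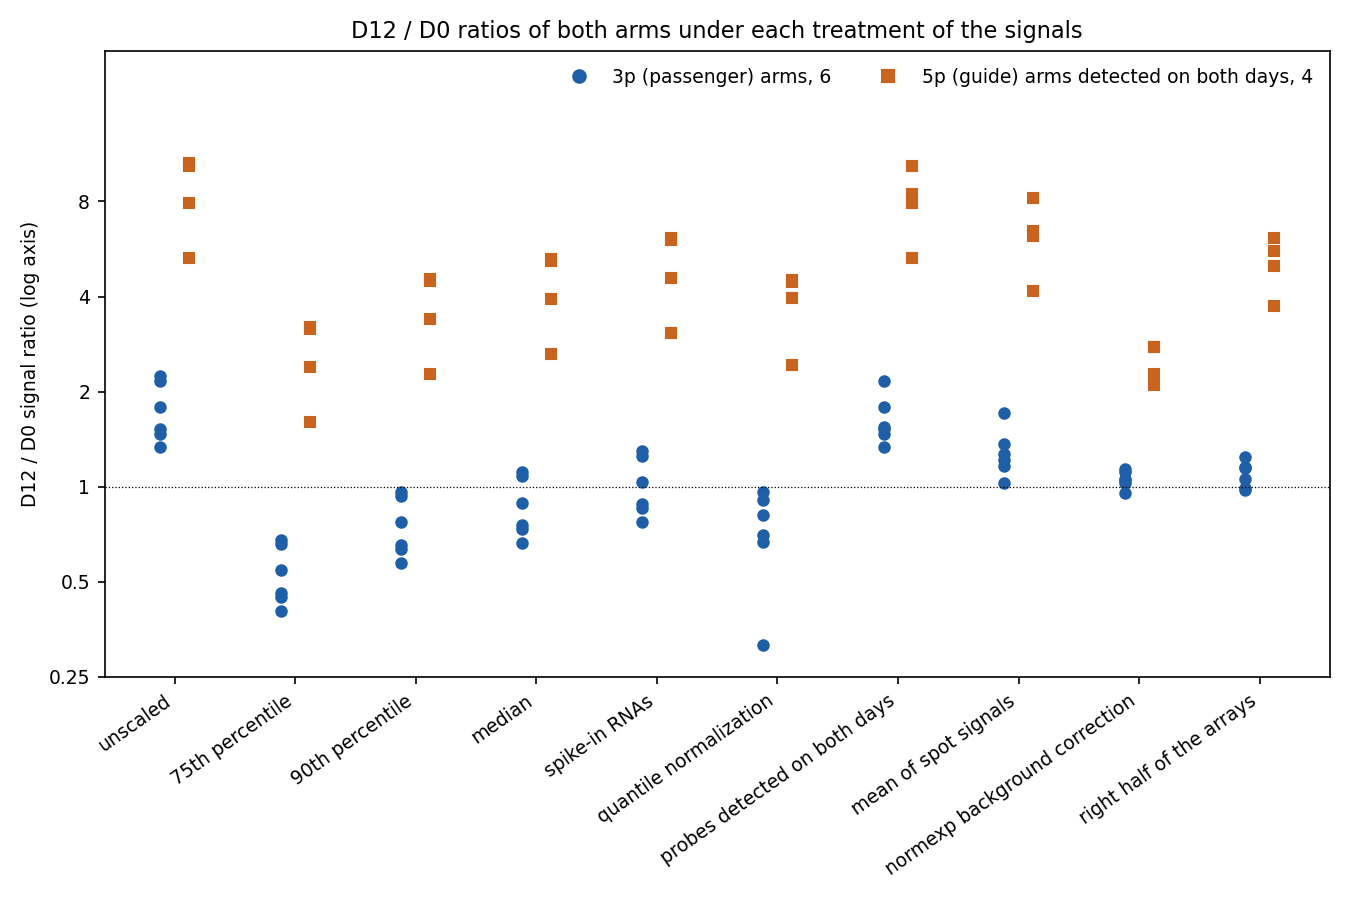
D12/D0 signal ratio (log axis) of the 6 passenger arms (blue circles) and of the 4 guide arms detected on both days (orange squares), without scaling and under each other treatment of the signals. The passenger arms lie above, around or below 1 depending on the treatment, and the guide arms lie above 1 in all 10 columns.

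The ratio of the 2 arms does not depend on a factor common to an array, because both arms were read on it. On the log2 scale the 3p/5p ratio of let-7b relative to D0 stood at -1.35 ± 0.29 on D4, -1.29 ± 0.29 on D12 and -1.31 ± 0.30 on D16, which is 2.55-fold, 2.45-fold and 2.48-fold lower. For let-7d the shift was -2.04 ± 0.26, -2.14 ± 0.26 and -2.20 ± 0.27, or 4.10-fold, 4.42-fold and 4.59-fold lower. For let-7g it was -1.97 ± 0.37, -2.22 ± 0.37 and -2.36 ± 0.38, or 3.91-fold, 4.64-fold and 5.13-fold lower. Within each let-7 hairpin the 3 later days differed from each other by less than the sum of their technical errors. Each of these errors includes the D0 errors of both arms, which the 3 days share. The comparison is therefore a loose one and does not show that the days were equal.

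For miR-16-1-3p over miR-16-5p the shift was -2.92 ± 0.32 on D4, -2.84 ± 0.32 on D12 and -2.97 ± 0.33 on D16, the last being 7.86-fold lower. The guide was summed over 1 of its 2 probes at D0 and over both later. Over the probes detected on both days the shift was smaller, at -2.60, -2.52 and -2.65. With the mean of spot signals it was -2.50, -2.47 and -2.56. With normexp background correction, which adds an offset of 50 to every spot, the shift was -1.10, -1.11 and -1.04 on the same days. For miR-15a it was -2.19 or lower on D4, -3.17 or lower on D12 and -3.28 or lower on D16, which is at least 4.57-fold, 8.99-fold and 9.74-fold lower. Both shifts were larger in size than that of let-7b on each later day. Because miR-16-5p is also encoded by Mir16-2, the miR-16 shift is not that of the Mir16-1 hairpin alone.

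All 4 hairpins with both arms measured lay below -1 on each later day, and with normexp background correction 3 of 4 did, with let-7b at -0.93, -0.88 and -0.80. Among all hairpins with both arms detected on D0 and the later day, named by the same root in the 2 arms, this was so for 22.6% of 31, 16.7% of 30 and 19.2% of 26 in the order of the days. The median shift of those hairpins was 0.56 on D4, 1.19 on D12 and 1.20 on D16, in the opposite direction, and 14, 18 and 14 of them lay above 1. Shifts past 1 in either direction were common, in 21, 23 and 19 of them. Counted from the lowest, let-7b ranked 5, 5 and 4 among them on the 3 days, let-7d 2, 4 and 3, and let-7g 3, 3 and 2. These 3 let-7 hairpins are thus part of the set, and are 3 of its 7, 5 and 5 hairpins below -1. Without them the median shift was 0.98, 1.26 and 1.53 in the order of the days. miR-16 was not in the set, since the names of its arms differ. The 3p arm is the guide in many other hairpins, and the pairs were not sorted by guide. Of the 723 hairpins with both arms on the array, only 3.46% had both detected on all 4 days, so these values come from a small set.

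**Figure D3:**
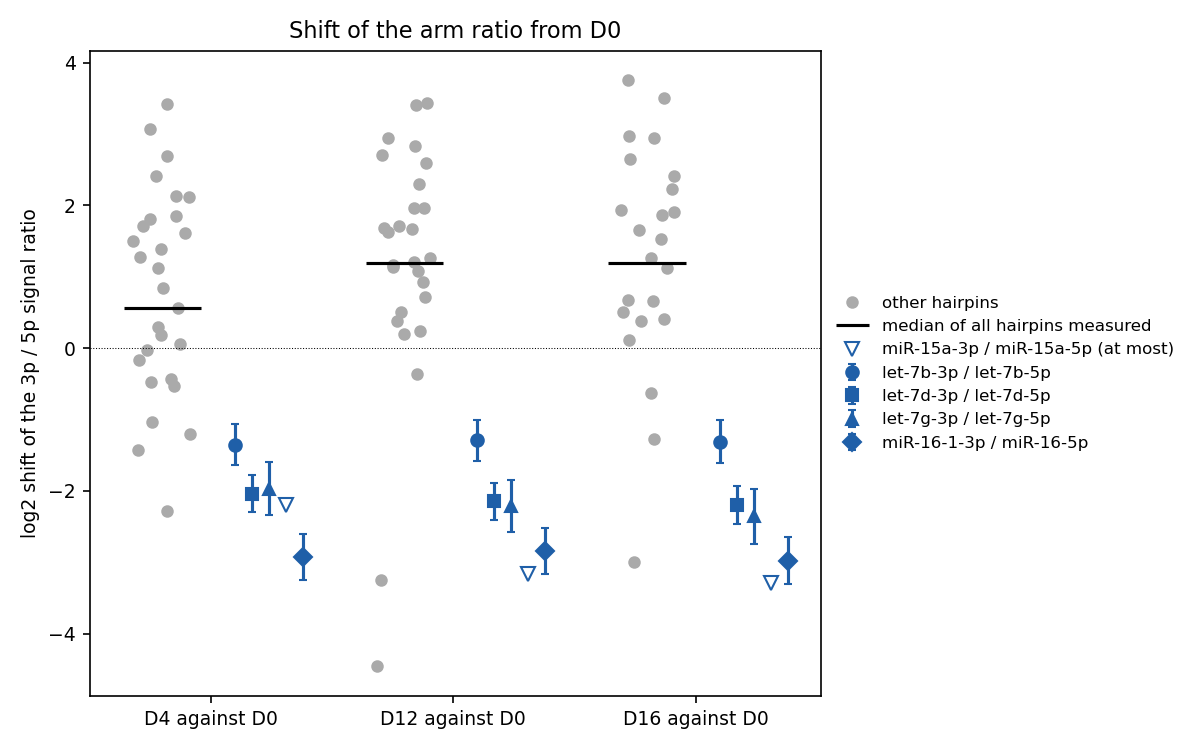
Log2 shift of the 3p/5p signal ratio from D0 at D4, D12 and D16, for the hairpins with both arms measured (grey, with the median of all measured hairpins as a bar) and for the hairpins of the passenger arms (blue, with technical error). All blue points lie between -1.29 and -2.97 and the open triangles for miR-15a, which are upper bounds, between -2.19 and -3.28, while the grey points lie on both sides of 0.

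The direction of these shifts was the same in all 108 values computed for the 4 hairpins under the other treatments, which ran from -2.97 to -0.80. Among these are the scalings by 1 factor per array, which leave the shift as it is by construction. The smallest came from normexp background correction, with -1.43 to -0.80. The right side of the arrays, where the spots of all 6 passenger arms were brighter at D0 than on the left, gave -2.62 to -1.35. The mean spot signal of let-7b-3p was 13.9 on the left side and 21.8 on the right at D0, and 32.0 and 26.8 at D12. That of miR-16-1-3p was 22.8 and 32.2 at D0, and 31.1 and 30.7 at D12. The part of the uneven D0 array in the size of each ratio was not tested beyond the right side. On that side the D12 ratios of let-7b-3p and miR-16-1-3p were 1.24 and 0.979.

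From D4 to D12 the 5 passenger arms other than miR-18a-3p had a ratio of 0.871 to 1.11, and from D12 to D16 one of 0.582 to 0.684. Relative to the median over the 283 miRNAs detected on all 4 arrays, the D12/D4 ratios were 1.03 to 1.32 and the D16/D12 ratios 0.838 to 0.985. The highest D12/D4 and the lowest D16/D12 values were those of let-7g-3p, for which 3, 4 and 3 probes were summed on D4, D12 and D16. Summed over all 4 of its probes, its signal was 10.8 on D4, 10.8 on D12 and 7.27 on D16, so its rise to D12 was not seen there. Neither step used the D0 array.

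The signals were spread over 4 probes per passenger arm. In let-7b-3p, let-7d-3p, miR-15a-3p and miR-16-1-3p all 4 were detected on every day. At D12 their ratios to D0 were 1.81 to 2.71 in let-7b-3p, 1.44 to 2.01 in let-7d-3p, 1.37 to 1.67 in miR-15a-3p and 1.34 to 1.71 in miR-16-1-3p, with all 4 probes above D0 in each. At D16, 4 of 4 probes of let-7b-3p were above D0 but 0 of 4 of miR-16-1-3p.

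Of the 30 spots of each arm, 14 of let-7b-3p were flagged well above background on D0, and 28, 26 and 23 on the later days. let-7d-3p had the most, with 27, 30, 29 and 30 spots. The counts were 21, 26, 27 and 20 for miR-15a-3p, 23, 28, 29 and 20 for miR-16-1-3p, and 12, 14, 15 and 10 for let-7g-3p. miR-18a-3p had 1, 0, 2 and 0, and it was not detected on any day when a probe needed 50% of its spots flagged. Its mean spot signal was 11.1, 10.6, 12.2 and 10.6 in the order of the days, above the 95th percentile of the negative control spots (7.43, 7.95, 7.91 and 9.10).

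**Figure D4:**
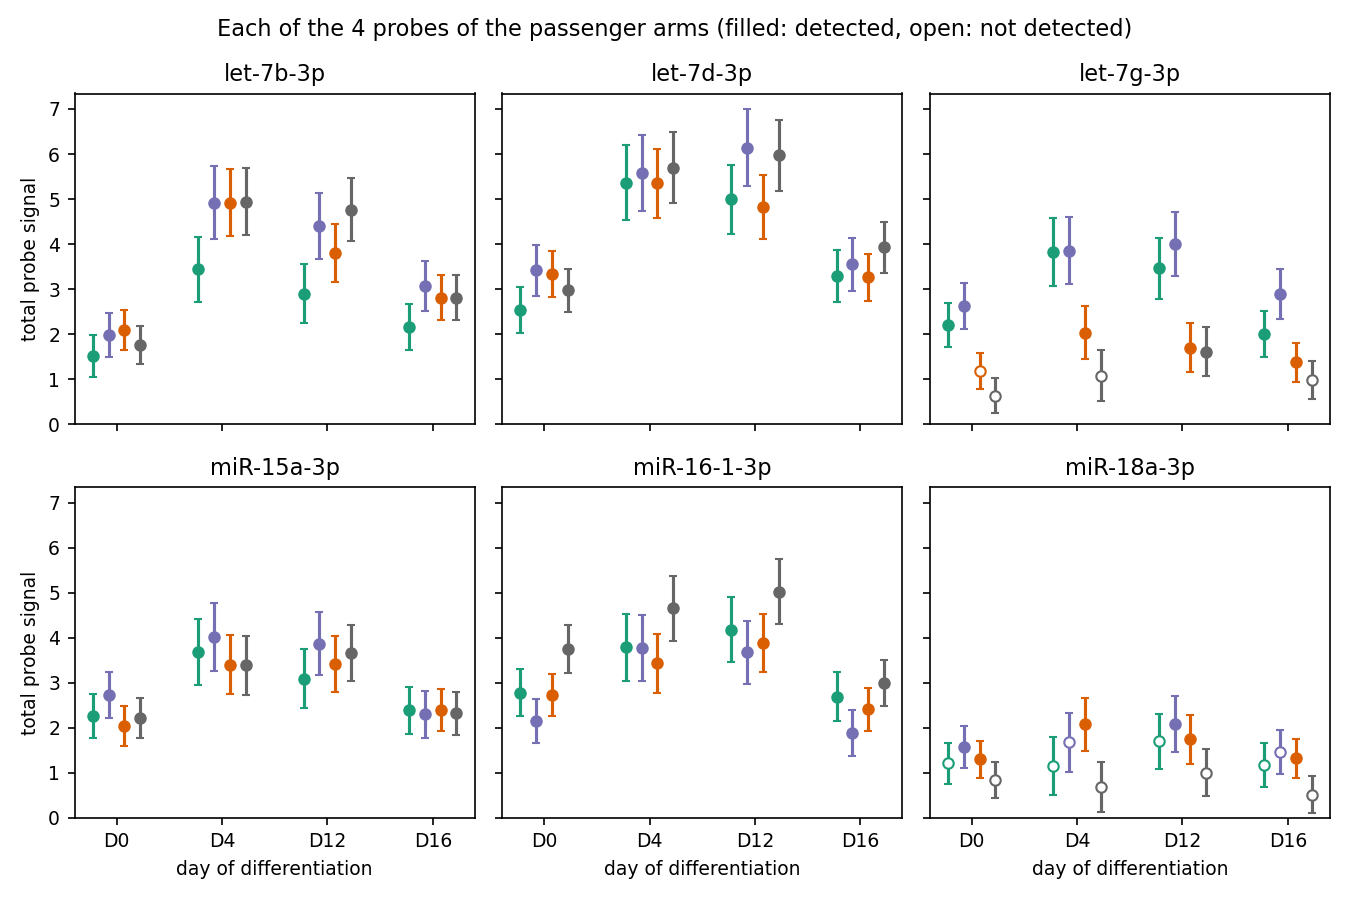
Total probe signal of each of the 4 probes of the 6 passenger arms on D0, D4, D12 and D16, with the technical error as bars, filled where the probe was detected and open where it was not, and with 1 colour per probe within a panel. All 4 probes are filled throughout in let-7b-3p, let-7d-3p, miR-15a-3p and miR-16-1-3p, while in miR-18a-3p the filled probes change with the day at nearly equal heights.

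Other passenger arms of the same families were not detected. Of 16 listed (those of the other let-7 hairpins, miR-98, miR-15b, miR-16-2 and the rest of the miR-17-92 cluster), 15 were on the array, and 0 of them were detected on any day. Of the 13 guides of these arms, 10 were detected at D0 and 12 on each later day. Summed over all probes, the undetected arms lay between -0.863 and 2.37 at D0 and between -1.54 and 3.93 at D12, where the highest upper bounds were 4.97 and 6.71. The sums of the 6 members ran from 4.91 to 12.3 and from 6.52 to 21.9, the lowest being that of miR-18a-3p. On each day the sum of miR-18a-3p lay under its own upper bound, which was 5.15 at D0 and 6.89 at D12. The gap between the sums of members and undetected arms was narrower at D4. There the summed signal of let-7f-1-3p was 4.78 and that of miR-19b-1-5p was 4.17, beside 5.58 for miR-18a-3p. These 15 arms were read by 2 to 4 probes each and the list was chosen with the detection calls known.

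A few of the undetected arms are shown for comparison. let-7f-1-3p and let-7a-1-3p share the seed of let-7b-3p and lie near let-7d-3p in the genome, let-7i-3p is another passenger arm of the let-7 family, and miR-16-2-3p and miR-15b-3p come from the second pair of miR-15/16 hairpins, on chr3.

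mmu-let-7f-1-3p: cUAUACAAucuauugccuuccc

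mmu-let-7a-1-3p: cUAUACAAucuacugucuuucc

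mmu-let-7i-3p: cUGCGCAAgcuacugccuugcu

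mmu-miR-16-2-3p: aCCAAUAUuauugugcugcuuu

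mmu-miR-15b-3p: cGAAUCAUuauuugcugcucua

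let-7f-1-3p matched let-7b-3p at 20 of 22 aligned positions and let-7a-1-3p at 19 of 22, with the same seed, and neither was detected while let-7b-3p was. let-7b-3p and let-7d-3p matched at 18 of 22. Both undetected arms belong to the let-7d cluster, at chr13:48537833-48537854 for let-7f-1-3p and chr13:48538188-48538209 for let-7a-1-3p, on the minus strand like let-7d-3p. miR-16-2-3p matched miR-16-1-3p at 17 of 23 positions. In the miR-17-92 cluster on chr14, miR-17-3p, miR-19a-5p, miR-19b-1-5p, miR-20a-3p and miR-92a-1-5p were not detected, while miR-18a-3p was detected by 1 or 2 of its 4 probes and not by the rule on 50% of the spots.

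Sequence features were then compared across the 1674 distinct mature sequences of the RefSeq table, on the strand listed. The letters CUGCC, chosen after the sequences had been seen, occurred in 5 of the 6 passenger arms (not in miR-16-1-3p), in 0 of their guides and in 1 of the 14 other passenger arms with a sequence (let-7i-3p), against 4.42% of all mature sequences. It includes bases that the related let-7 arms have in common. The longest run shared by 2 members was ACUGUGCUGC, in miR-15a-3p and miR-16-1-3p. GGAG, described as an exosome-sorting motif, occurred in 0 members and in 14.2% of all sequences, and CCCU, another such motif, in miR-18a-3p alone among the members and in 11.4% of all. The median GC content was 52.3% in the members, 42.2% in their guides, 43.2% in the other passenger arms and 52.2% over all mature sequences. The undetected passenger arms thus had a lower median GC content than the members, with a range of 31.8% to 59.1% that includes theirs, and the part of base composition in the probe signals was not tested.

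The miRNAs with the most similar profile were sought over the 283 miRNAs detected on all 4 arrays. The measure was the Euclidean distance between log2 signals, each centred on its own mean over the 4 days. Those nearest to let-7b-3p were miR-483-3p (distance 0.03) and miR-877-3p (0.04), to let-7d-3p miR-7b-3p (0.02) and miR-7063-3p (0.05), and to let-7g-3p miR-6917-3p (0.14) and miR-7087-3p (0.17). Those nearest to miR-15a-3p were miR-7115-3p (0.04) and miR-6980-3p (0.06), and to miR-16-1-3p miR-8095 (0.04) and miR-3076-5p (0.08). miR-18a-3p had no close profile, the nearest being miR-7038-5p (0.50) and miR-7030-5p (0.62). By comparison, the distance of a passenger from its own guide was 1.14 for let-7b, 1.85 for let-7d, 1.91 for let-7g and 2.52 for miR-16, and that between miR-15a-3p and miR-16-1-3p was 0.18. A profile of 4 centred values, 1 per day, can be matched by many miRNAs.

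miRNAs that serum could bring were also read, namely those of red blood cells (miR-451a, miR-144-3p, miR-144-5p, miR-486a-5p and miR-486b-5p), leukocytes (miR-223-3p) and liver (miR-122-5p). Of these 7, 6 were on the array, with 1, 4, 6 and 5 detected in the order of the days and a summed signal of 9.40, 485, 2604 and 1700. Most of the sum was miR-451a, with signals of 9.40, 443, 2400 and 1559. Both this sum and the 4 guide arms measured at D0 were higher than at D0 on each later day. From D4 to D12 the summed signal of the list went from 485 to 2604. Over the same step let-7b-5p went from 88.7 to 74.2 and miR-16-5p from 68.6 to 69.5. The guide let-7d-5p went from 98.4 to 106, let-7g-5p from 69.3 to 91.3 and miR-15a-5p from 36.7 to 69.8. The part of these sources in the signals was not tested.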

How the data were processed

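RNA of the 3T3-L1 exosome fraction was hybridised by the authors to 4 mouse miRNA arrays on 1 slide (D0, D4, D12 and D16). They deposited Feature Extraction output (11.0 per the labels, 11.0.1.1 per the file headers) as background-subtracted intensity values with no scaling between arrays. A miRNA not detected is listed at 0.1. The software's detection call was matched from its probes for all 1881 miRNAs on each array. From these, ratios to D0, arm ratios and counts were computed with Python 3.11.15, numpy 2.4.6 and pandas 2.3.3, and normexp (offset 50) with limma 3.58.1 in R 4.3.3. Errors of ratios combine the technical errors of both signals. Where a guide was not detected at D0, its bound was 3 times the error summed over its probes. Sequences and positions come from RefSeq tables of GRCm38.p6, where 1608 of the 1881 miRNAs were found; miR-19a-5p was not. The array header names mm9, and the files give no positions. The miRNAs named are the 6 members, their guides, the listed relatives, the listed blood and liver miRNAs and the 2 nearest profiles of each member. Members and lists were chosen with earlier results of these data known. Each day is a pool on 1 array, so no test was made; precision is limited by the number of arrays. Alternatives were 4 scalings, quantile normalization, other probe summaries, background correction, the right side of the arrays, thresholds, a filter on dim miRNAs and detection rules.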

Additional observations from a re-analysis of the deposited data

How the results depend on the processing

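With 1 array per day none was left out, and no paired analysis was possible because each day has 1 array. What depth limits here is signal over background: miR-18a-3p and the undetected relatives lie at or under the detection limit. The number of members detected was 6 on each day and 5 or 6 under other detection rules, and 0 of the other passenger arms was detected also by the rule on 50% of the spots, which was chosen after seeing the data. Since none was detected, the planned scalings gave no value for them.

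The number of passenger arms above 2-fold, 2 at D4 and 2 at D12, became 0 on both days with scaling to the 75th or 90th percentile, the median or the spike-in RNAs, after quantile normalization, with the mean of spot signals, normexp, the right side of the arrays, a threshold of 3-fold or the filter on dim miRNAs, which left let-7d-3p alone. It became 1 over the probes detected on both days and 4 with a threshold of 1.5-fold. The number below 0.5-fold, 0 at D4, became 5 with the 75th percentile, 2 with the 90th percentile, 2 with quantile normalization, and 1 with the median and with the spike-in RNAs. At D12 it went from 0 to 3 (75th percentile) and 1 (quantile normalization). At D16 it went from 1 to 3 with the 75th percentile and to 0 over shared probes, with the mean of spot signals, normexp, the right side, the 3-fold threshold or the filter.

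The median log2 ratio over the 6 arms was 0.74 on D4, 0.72 on D12 and 0.11 on D16. In the same order it was -1.35, -0.998 and -1.07 with the 75th percentile, -0.82, -0.49 and -0.57 with the 90th percentile, -0.60, -0.28 and -0.44 with the median, -0.12, -0.064 and -0.24 with the spike-in RNAs, and -0.79, -0.40 and -0.53 after quantile normalization. The right side gave 0.042, 0.14 and -0.17. At D4 and D12 the mean of spot signals gave 0.29 and 0.31 and normexp 0.062 and 0.074. The ratio of let-7b-3p turned from 1.31 (log2) at D4 to -0.78 with the 75th percentile, -0.25 with the 90th, -0.037 with the median and -0.23 after quantile normalization, and from 1.11 at D12 to -0.61 with the 75th percentile, -0.10 with the 90th and -0.052 after quantile normalization. That of let-7g-3p turned from 1.01 at D4 to -1.08, -0.55, -0.34 and -0.71 in the first order, and from 1.16 at D12 to -0.56, -0.053 and -0.14 in the second. That of miR-18a-3p at D16 turned from -1.11 to 0.028 over the shared probe. The scalings shift every miRNA of an array by 1 factor, and other causes were not tested.

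The median arm-ratio shift over the 4 hairpins was -2.003 on D4, -2.18 on D12 and -2.28 on D16, and moved beyond its technical error only with normexp, to -1.13, -1.21 and -1.14. The share of all hairpins below -1 (22.6%, 16.7% and 19.2%) became 9.68%, 6.67% and 7.69% with normexp and 7.14%, 7.69% and 7.14% with the filter on dim miRNAs. It became 9.68% at D4 and 11.5% at D16 with a threshold of 3-fold, and 12.9% at D4 on the right side. The number of members with a shift below -1, 4 on each day, was 3 with normexp and 3 with a threshold of 3-fold, let-7b being the one left out in both, and 1 (let-7d) with the filter on dim miRNAs. These counts were chosen after seeing the data.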
